A study of Mus musculus with 66 samples.

Results

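The regions described here are short stretches of the mouse genome at which CATCH-IT, a measure of histone turnover, gave reads both in depolarised and in unstimulated cortical neurons. They were selected on the measured values: a region of the authors' deposited CATCH-IT table belonged here when the mean of its KCl group and the mean of its control group were both above 0 and its length was at most 380 bp. Of 53020 listed regions, 1104 met this rule. The larger of the 2 group means gave the direction, so that 964 regions were higher after KCl (called gained) and 140 were lower (called lost). Since these values chose the regions, the direction, the size of the difference and the authors' p-values are given as a description and were not tested. Of all listed regions 57.3% were gained, and 100% had an adjusted p of at most 0.05 in the authors' deposited table, so that neither the direction nor the p sets single regions apart. Most other listed regions, 49013 of at most 380 bp, had one group at 0, and 115 wider regions had reads in both groups.

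The neurons were primary cortical neurons of C57bl/6 mouse embryos taken at E16.5 and kept for 8 days in vitro. They were exposed to KCl for 5 hr or left without stimulation for 5 hr. Labelled chromatin was captured on M280 streptavidin beads, with 3 libraries in each group and 3 input libraries of each treatment. The labels name no genotype beyond the strain, and a primary culture of this kind can hold other cell types, which cannot be read from a list of regions. The table packs the 3 values of a group into a cell without library names, and they are called here by their place (first to last) in that cell. Per the sample titles all KCl capture libraries came from sequencing lane 1 and all control capture libraries from lane 5, so that lane and treatment cannot be told apart. The same holds for the input, with KCl input libraries from lane 3 and control input libraries from lane 2. The lists for H3.3, set beside these regions at the end, came from the same kind of culture and from hippocampal nuclei of C57bl/6 mice aged about 7 weeks, sorted by NeuN, a neuronal marker, after environmental enrichment or normal housing.

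CATCH-IT gives living cells an analogue of methionine, which is built into newly made proteins. The analogue is coupled to biotin, and streptavidin then captures nucleosomes that carry newly made histones, so that a strong signal marks DNA where histones were replaced recently. In neurons, which no longer divide, replacement takes place mainly outside DNA replication. Raised external KCl depolarises the membrane, opens calcium channels and sets off activity-dependent transcription.

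The sequences below are those of regions described further on, and are shown because they range from DNA present in several copies to DNA found once in the genome. They come from the reference genome NCBIM37 (mm9), plus strand, 5′ to 3′. Capitals mark bases inside a 32-base word that occurs more than once in the genome on either strand. The first 2 belong to gained regions with many reads in the control group, and the next 4 to lost regions with many reads in the KCl group. Regions longer than 300 bases are shown by their central 300 bases.
Pericentromere of chromosome 9, gained (chr9:3017251-3017550): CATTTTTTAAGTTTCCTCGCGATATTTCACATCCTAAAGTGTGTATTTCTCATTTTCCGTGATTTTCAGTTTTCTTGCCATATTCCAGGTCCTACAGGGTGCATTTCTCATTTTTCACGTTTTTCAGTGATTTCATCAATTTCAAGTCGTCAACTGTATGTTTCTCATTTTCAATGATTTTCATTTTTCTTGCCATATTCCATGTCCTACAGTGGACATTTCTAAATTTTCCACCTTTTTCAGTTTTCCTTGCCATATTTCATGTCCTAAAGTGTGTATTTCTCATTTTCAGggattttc
mt-Cytb, gained (chrM:14881-15180): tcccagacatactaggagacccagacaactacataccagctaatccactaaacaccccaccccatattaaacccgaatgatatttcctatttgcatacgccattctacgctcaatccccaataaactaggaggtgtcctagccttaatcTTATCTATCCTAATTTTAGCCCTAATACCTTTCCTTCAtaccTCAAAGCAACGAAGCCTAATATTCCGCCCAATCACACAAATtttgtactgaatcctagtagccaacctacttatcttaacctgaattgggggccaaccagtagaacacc
mt-Nd5, lost (chrM:12211-12510): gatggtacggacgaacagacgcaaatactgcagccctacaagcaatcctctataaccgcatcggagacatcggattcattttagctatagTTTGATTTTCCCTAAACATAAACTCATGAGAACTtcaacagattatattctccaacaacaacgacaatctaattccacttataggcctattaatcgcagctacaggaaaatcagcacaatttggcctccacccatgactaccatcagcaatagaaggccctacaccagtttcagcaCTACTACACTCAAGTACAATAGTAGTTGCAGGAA
mt-Nd4, lost (chrM:11121-11320): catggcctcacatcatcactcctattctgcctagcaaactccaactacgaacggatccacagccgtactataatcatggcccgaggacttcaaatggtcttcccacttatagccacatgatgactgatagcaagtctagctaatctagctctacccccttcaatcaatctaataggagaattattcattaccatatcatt
Intergenic on chromosome 14, lost (chr14:28341281-28341560): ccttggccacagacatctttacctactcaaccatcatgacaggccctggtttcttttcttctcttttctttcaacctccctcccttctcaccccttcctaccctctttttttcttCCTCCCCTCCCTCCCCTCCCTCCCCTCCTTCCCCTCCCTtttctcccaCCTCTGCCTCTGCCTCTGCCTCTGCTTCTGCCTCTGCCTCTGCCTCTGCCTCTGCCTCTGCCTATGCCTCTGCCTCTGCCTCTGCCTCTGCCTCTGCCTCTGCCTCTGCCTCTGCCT
mt-Nd1, lost (chrM:2841-3080): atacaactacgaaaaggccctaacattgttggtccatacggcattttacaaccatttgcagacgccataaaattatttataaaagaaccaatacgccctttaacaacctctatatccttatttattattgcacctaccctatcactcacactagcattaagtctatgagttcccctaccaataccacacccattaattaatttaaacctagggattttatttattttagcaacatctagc
The words of the chromosome 9 sequence had a median of 11 copies, and 97.3% of its bases lay in repeated words. The chromosome 14 region ended in a run of cctctg units. Of the mitochondrial sequences, mt-Cytb had 26.3% and mt-Nd5 22.7% of bases in repeated words, and mt-Nd4 and mt-Nd1 had 0.
The central 120 bases of a region with the most frequent set of values, chosen after the values were seen, stand against these, since they hold no repeated word.
Rassf5 intron, gained (chr1:133089911-133090030): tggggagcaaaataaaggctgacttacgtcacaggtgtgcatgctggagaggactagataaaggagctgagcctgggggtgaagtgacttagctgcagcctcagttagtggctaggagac

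The values were low and rested on few reads in the lower group. In each library all values above 0 were whole multiples of the lowest, within 0.02 for 100% of them, which gives the worth of 1 read. It was 1.34, 0.532 and 2.72 in the first, second and last KCl value, and 0.316, 1.39 and 1.18 in the control values. The second KCl library and the first control library therefore had the finest reading. The regions were above 0 in 1005, 1034 and 992 of 1104 cases in the 3 KCl libraries. In the control libraries this was so in 872, 402 and 458 cases. The first control library thus had reads in most regions. Among the 709 gained regions with reads in a single control library, this was the first library in 506, the second in 81 and the last in 122. Without the first control value only 598 regions would have met the rule, and 76.6% of them would have been gained in place of 87.3%.

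The median KCl mean of the gained regions was 9.17 and their median control mean 0.630, in the authors' normalised counts. In the lost regions the medians were 0.450 after KCl and 8.50 in control. The median log2 fold change in the authors' deposited table was 3.87 for gained and -4.25 for lost regions. In whole reads, without the authors' scaling, the gained regions had a median of 18 reads after KCl against 4 in control, and the lost regions had 1 against 25. The median log2 ratio of summed reads was 2.12 and -4.46. The summed reads are the values that chose the regions without their scaling, and so give no second measure of direction. They pointed the same way as the authors' means in all 1104 regions. They differed at least 3-fold in 775 of 964 gained and in 140 of 140 lost regions, without regard to library depth.

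**Figure D1:**
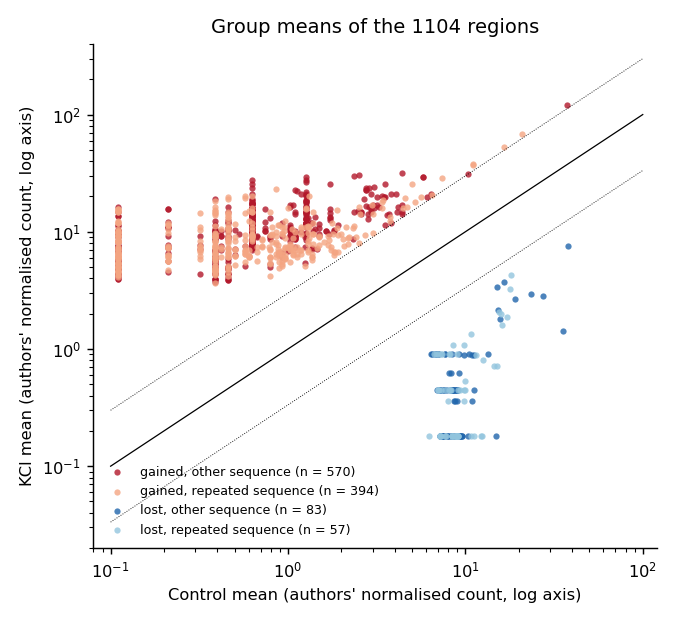
Mean of the 3 control values (x axis, log scale) and of the 3 KCl values (y axis, log scale) of each of the 1104 regions, in the authors' normalised counts, with the line of equality and dotted lines at 3-fold. Points fall on columns at the left and rows at the bottom because the lower group often held 1 or a few reads, and no point lies between the dotted lines because such regions were not listed.

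The lower group held a single read in 400 of 1104 regions, 295 gained and 105 lost. A group of 3 libraries with 1 read cannot give a fold with any precision: Ust, which encodes a sulfotransferase acting on glycosaminoglycans, had an intronic region with 22 reads against 1, a ratio of 22 with a counting interval (95%, exact) of 3.56 to 908. Such intervals take reads as independent, which was not tested. The ratios of summed reads are not scaled for the unequal worth of 1 read between libraries, so that a ratio of 1 does not mark no change. The smallest adjusted p in the authors' deposited table, 4.94e-08, belonged to a region of mt-Rnr2. The other 7 of the 8 gained regions with the smallest adjusted p rested on 1 or 2 control reads, among them those of Ust, Gab2 and B930007M17Rik. Reads in the lower group numbered at least 10 in 108 regions. Among gained regions the numbers were not spread evenly. They fell from 295 regions with 1 control read to 27 with 5, rose to 269 with exactly 6, and stood at 52 with exactly 12. The groups did not overlap in 719 of 1104 regions, or 65.1%, against 99.2% of all listed regions, where a group at 0 makes this nearly certain. Only 77 regions had reads in all 6 libraries, and the groups did not overlap in 26 of them.

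**Figure D2:**
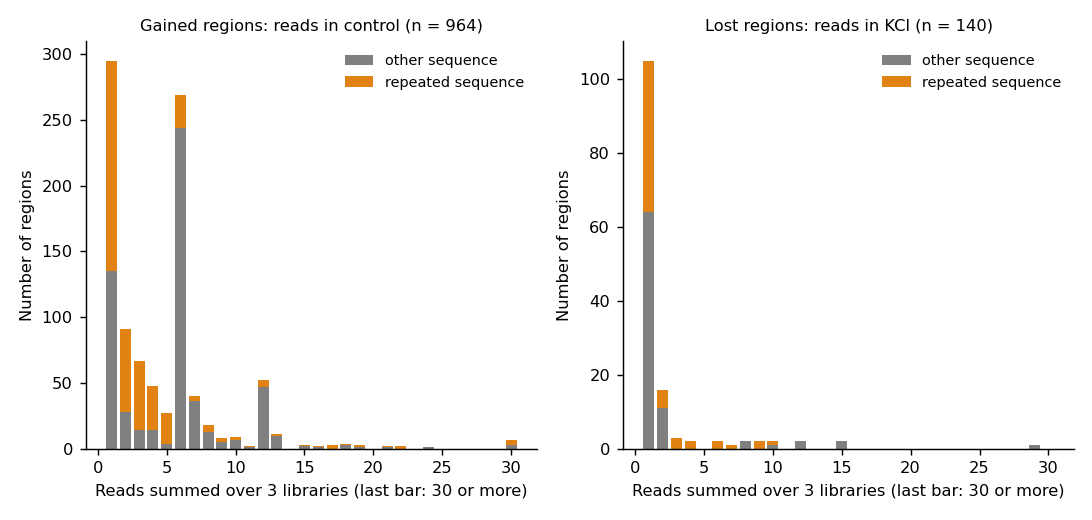
Number of gained (left) and lost (right) regions by the reads summed over the 3 libraries of the lower group, with regions at repeated sequence in orange and others in grey. Gained regions peak at 1, 6 and 12 control reads, and at 6 and 12 only 9.29% and 9.62% of them are at repeated sequence.

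Repeated sequence was more frequent in these regions than in the rest of the table. A region is called repeated here when at least 50% of its 32-base words, taken every 20 bases, occurred more than once in the genome. This held for 451 of 1104 regions, or 40.9%, against 4.08% of the 49013 regions of at most 380 bp with one group at 0. Of the 115 wider regions with reads in both groups it held for 17.4%, so that a raised share was not particular to the short ones. With at least 90% of words the shares were 13.9% and 0.484%. Sequence was not used by the rule, but regions of shared sequence are not independent, and no test was made. Seen from the other side, 18.4% of all repeated regions of at most 380 bp had reads in both groups, against 1.37% of other regions. Gained and lost regions had nearly the same share, 40.9% and 40.7%. The direction was also alike: 87.4% of repeated and 87.3% of other regions were gained.

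The repeated share went with the number of reads in the lower group among gained regions. It was 63.1% of the 528 gained regions with 1 to 5 control reads, 11.3% of the 398 with 6 to 12 and 42.1% of the 38 with more than 12. With exactly 6 control reads it was 9.29%. Among lost regions it was 40.5% of the 126 with 1 to 5 KCl reads and 42.9% of the 14 with more. By the authors' position classes, the repeated share was 26.8% in gene bodies, 11.4% at promoters, 41.1% in other intergenic sequence, 60.9% in gene deserts and 85.7% in pericentromeres. In regions with one group at 0 the same shares were 2.18%, 2.45%, 5.11%, 6.40% and 51.2%.

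**Figure D3:**
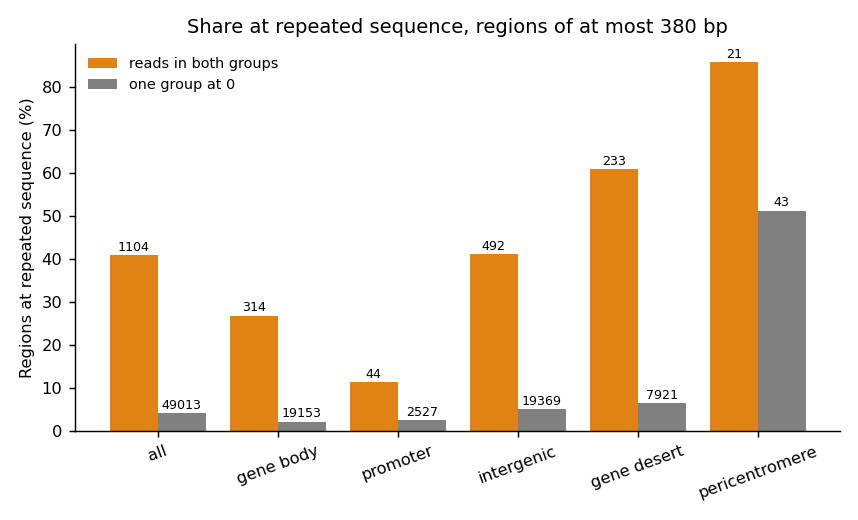
Share of regions of at most 380 bp at repeated sequence (y axis, percent), for all regions and by the authors' position class, in regions with reads in both groups (orange) and with one group at 0 (grey), with the number of regions over each bar. The orange bar is higher in every class.

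Satellite-like DNA beside centromeres had the highest repeated share of the classes, in both sets of regions. Pericentromeres are packed as constitutive heterochromatin on tandem satellite repeats. Of 71 listed pericentromere regions 21 belonged here, 17 gained and 4 lost. On chromosome 9 there were 15, and all of these and 1 on chromosome 12 shared a 32-base word with the sequence printed above or were that region. None of the 49013 regions with one group at 0 did. The printed region, chr9:3017221-3017580, had KCl values of 53.43, 44.20 and 108.71 and control values of 11.99, 29.10 and 21.29. All 3 KCl values lay above all 3 control values, and the means were 68.8 ± 34.9 and 20.8 ± 8.57 (SD, n = 3 each). Its log2 fold change in the authors' deposited table was 1.73. The values listed at neighbouring copies went in opposite directions. The region chr9:3024841-3025040 had KCl values of 0, 2.13 and 0 and control values of 6.00, 15.24 and 22.47. The next region, chr9:3025061-3025320, began after 20 bases and had KCl values of 41.41, 21.30 and 48.92 against control values of 3.47, 15.24 and 14.19. The groups did not overlap in either of them. All words of both regions were repeated in the genome, with medians of 10 and 9 copies. How reads that map to several places were handled is not stated, so these values cannot be tied to single copies.

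Telomere units also occurred. A search made after the sequences were seen, for 3 or more TTAGGG units in a row on either strand, found 8 of the 1104 regions, and 4 of the 49013 regions with one group at 0. All 8 were gained, as were 87.3% of the 1104 regions. Among them, an intronic region of Sh3bgrl2, which encodes a small protein of the thioredoxin fold, had 43 KCl reads against 21. Its values were 22.71, 7.46 and 32.61 after KCl and 2.52, 8.32 and 8.28 in control, with 1 KCl value below 2 of the control values.

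The mitochondrial genome gave 9 regions, every listed mitochondrial region of at most 380 bp. Mitochondrial DNA encodes subunits of the respiratory chain and ribosomal RNAs, and it is packed without nucleosomes. The 2 wider mitochondrial regions listed also had reads in both groups. Of the 9 regions 5 were gained and 4 lost.

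The 2 ribosomal RNA genes were gained. In mt-Rnr1, the small ribosomal RNA (chrM:461-840), the KCl values were 29.39, 41.54 and 24.46 and the control values 13.25, 0 and 0. In mt-Rnr2, the large ribosomal RNA (chrM:2241-2440), they were 36.07, 26.09 and 29.90 after KCl and 7.57, 0 and 0 in control. The KCl values lay above the control values, which rested on the first control library alone. In reads, not scaled, mt-Rnr1 had 22, 78 and 9 against 42, 0 and 0. At mt-Rnr2 the reads were 27, 49 and 11 against 24, 0 and 0. By reads the first control library thus lay within the KCl range at both. The same held for the coding exon of mt-Co1, a subunit of cytochrome c oxidase (chrM:5501-5700), with 18.70, 11.18 and 16.31 against 5.68, 0 and 0. In reads this was 14, 21 and 6 against 18, 0 and 0, and 55.6% of the words of mt-Co1 were repeated.

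The regions in NADH dehydrogenase genes were lost. In mt-Nd1 the region chrM:2841-3080, which began 400 bases after the mt-Rnr2 region, had KCl values of 0, 6.39 and 0 and control values of 19.88, 15.24 and 10.64. A second region of mt-Nd1 (chrM:3381-3640) had 5.34, 3.20 and 0 against 14.52, 24.95 and 42.57. In mt-Nd4 (chrM:11121-11320) the values were 1.34, 7.46 and 0 after KCl and 16.73, 18.02 and 35.48 in control. All control values exceeded all KCl values at these regions. The same was true of mt-Nd5 (chrM:12201-12520), with 1.34, 13.31 and 8.15 against 33.77, 59.59 and 20.10, which was the lost region with the most KCl reads, 29 against 167.

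Beyond these, mt-Cytb, a subunit of the cytochrome bc1 complex (chrM:14861-15200), had 40.08, 34.08 and 19.03 after KCl and 16.09, 4.16 and 10.64 in control, without overlap. Its log2 fold change of 1.59 in the authors' deposited table was the smallest of all 1104 regions. A region outside the annotated genes (chrM:15801-16120) had 38.74, 1.07 and 8.15 against 1.89, 8.32 and 0, and there the groups overlapped. The input did not follow these directions. The log2 ratio of KCl input to control input ranged from -0.870 to 0.791 over the 9 regions, and was 0.245 at mt-Rnr1, -0.116 at mt-Rnr2, -0.226 and 0.305 at the regions of mt-Nd1 and 0.137 at mt-Nd5. The input was high there, at 5.44 to 37.4 normalised counts in the KCl group, and at mt-Rnr1 the authors' deposited table gave a ratio to input of 0.85 after KCl and 0.14 in control.

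**Figure D4:**
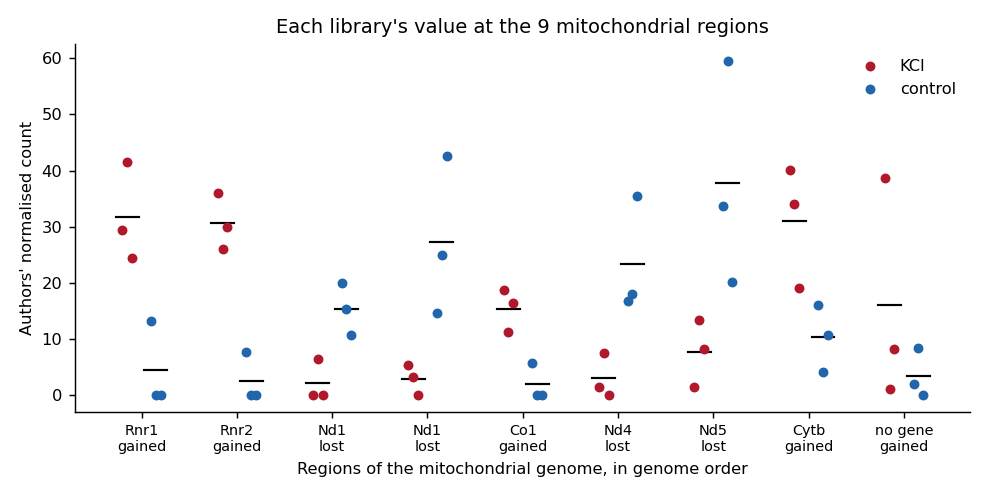
Normalised count of each library (dots) and group mean (bars) at the 9 regions of the mitochondrial genome, in genome order, after KCl (red) and in control (blue). The KCl values lie above the control values at both ribosomal RNA genes and below them at the genes Nd1, Nd4 and Nd5.

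A large set of gained regions, mostly away from repeats, had the same control values. In 253 of 964 gained regions the control group held 6 reads in the first library and 0 in the others, which is a value of 1.89. Of these, 147 had at least 6 reads in every KCl library, 192 were 380 bp long, 86 lay in gene bodies and only 16 were at repeated sequence. The most frequent set of all 6 values, 8.02, 3.20 and 16.31 after KCl and 1.89, 0 and 0 in control, occurred 36 times, on 16 chromosomes. It stands for 6 reads in each of 4 libraries. Of the 36 regions 19 were intergenic, 14 in gene bodies, 2 at promoters and 1 in a gene desert, and 1 was at repeated sequence. Altogether 294 of 1104 regions shared all 6 values with another region. Whole multiples of 6 made up 33.1% of the 4763 values above 0, against 36.7% over all listed regions. The table's name points to a duplicate setting of 6, whose meaning the sources used here do not state. Its part in these values was not tested.

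Genes with this set of values included Rassf5, which encodes a Ras effector, Pde4d, a cyclic AMP phosphodiesterase, and Srf, a transcription factor of the activity response. At each of them the region rested on 18 KCl reads against 6 control reads, a ratio of 3 with a counting interval (95%, exact) of 1.14 to 9.23. The interval takes the 6 reads of a library as independent, which was not tested. At Srf (chr17:46685861-46686240) the middle of the region lay in coding exon sequence, 7060 bases from the gene start. At Rassf5 (chr1:133089781-133090160) it lay in an intron.

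Genes of neuronal function appeared among the regions, mostly with 1 region each. No gene list was tested here, and the share of a list's listed regions that had reads in both groups is set against 2.08% over the whole table. The directions below stand beside 87.3% gained over all regions described here. Of the 26 glutamate receptor genes on the list, 21 had a listed region and 2 had a region here, both gained, which was 1.05% of 190 listed regions. Grm7, a presynaptic metabotropic glutamate receptor, had an intronic region (chr6:110598841-110599220) with KCl values of 34.73, 11.18 and 13.59 and control values of 0.32, 4.16 and 5.91. The groups did not overlap, and the means were 19.8 ± 13.0 and 3.46 ± 2.86 (SD, n = 3 each). Grid1, a delta-type glutamate receptor, had a region 1410 bases from its start with 24 KCl reads against 1, a ratio of 24 with a counting interval (95%, exact) of 3.91 to 987. Of the GABA and glycine receptor genes only Gabbr2, a subunit of the GABA-B receptor, had a region, which was lost and made up 1.67% of 60 listed regions. Its control values were 0.32, 38.80 and 1.18 and its KCl values 0, 0 and 2.72. It rested on the second control library, and the groups overlapped.

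The postsynaptic scaffold and signalling list had 4 regions, at Dlgap2, Homer3, Kalrn and Magi1, all gained and 2% of its 200 listed regions. Magi1, a scaffold of cell junctions, had 8.02, 6.39 and 16.31 against 1.89, 0 and 0, without overlap. In reads, not scaled, this was 6, 12 and 6 against 6, 0 and 0. Homer3, which links metabotropic glutamate receptors to calcium stores, had 2.67, 1.07 and 16.31 against 0, 0 and 1.18, with the second KCl value below the last control value. The presynaptic release list also had 4 regions, all gained and 2.68% of 149. They included regions at Cplx2, a regulator of vesicle fusion, Rims2, an active zone scaffold, and Unc13c, a priming factor. At Rims2 68.8% of the words were repeated in the genome. The region of Cplx2, 2838 bases from its start, had 24.05, 3.73 and 21.74 against 3.79, 0 and 0. There the second KCl value was slightly below the first control value. Unc13c had 8.02, 3.20 and 16.31 against 1.89, 0 and 1.18, without overlap. In reads this was 6, 6 and 6 against 6, 0 and 1. The groups were thus apart only in scaled values, where 1 read of the first control library was worth least.

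Synaptic adhesion and axon guidance genes made the largest group, with 15 regions at 13 of 85 genes, 1.99% of 752 listed regions. Of these regions 14 were gained and Cdh13, an atypical cadherin, had the lost one, with 1 KCl read against 26. The intronic region of Negr1, a neuronal adhesion molecule (chr3:156670941-156671320), had reads in all 6 libraries. Its KCl values were 34.73, 26.09 and 16.31 and its control values 4.10, 1.39 and 9.46, which did not overlap, and the means were 25.7 ± 9.22 and 4.98 ± 4.11 (SD, n = 3 each). All of its words were repeated in the genome. At Nrxn3, a presynaptic adhesion receptor, Flrt2, an axon guidance protein, and Cdh4, a cadherin, no word was repeated. Nrxn3 had 17.37, 3.73 and 19.03 against 3.79, 1.39 and 0, and Flrt2 had 26.72, 3.20 and 19.03 against 0.32, 8.32 and 1.18. In both, the second KCl value lay below the highest control value. Cdh4 had 8.02, 6.39 and 16.31 against 1.89, 0 and 1.18, without overlap. In reads, not scaled, this was 6, 12 and 6 against 6, 0 and 1.

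The ion channel list had 7 regions, all gained and 2.33% of 301. Kcnj6, an inwardly rectifying potassium channel opened by G proteins, had the highest KCl mean of the channel regions named, with 16.03, 6.39 and 59.79 against 1.89, 0 and 0. Scn8a, a sodium channel of the axon initial segment, had 6.68, 3.20 and 16.31 against 1.89, 1.39 and 0. Kcnmb2, a subunit of calcium-activated potassium channels, had 18.70, 1.60 and 2.72 against 1.89, 0 and 0, with the second KCl value below the first control value.

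Chromatin and histone regulators had 2 gained regions, 1.61% of 124 listed. Hdac4, a histone deacetylase that moves between cytoplasm and nucleus with activity, had 18.70, 3.20 and 38.05 against 0.63, 2.77 and 7.10. Chd8, a chromatin remodeller, had 13.36, 1.60 and 13.59 against 3.79, 0 and 0. The groups overlapped in both. In reads, Chd8 had 18 against 12, a ratio of 1.50 with a counting interval (95%, exact) of 0.684 to 3.41. Its log2 fold change in the authors' deposited table was 2.91. The 2 are not on the same scale: all 12 control reads lay in the first control library, where 1 read was worth only 0.316. The ratio of reads is not scaled for this. The list called activity-linked transcription factors had 3 gained regions, 3.37% of 89 listed. They lay at Srf and, with 2 regions, at Rfx3, which was on that list but is a regulator of ciliary genes. The Rfx3 region chr19:27947841-27948220 had 61.1% of its words repeated and rested on 1 control read. Immediate-early genes had 4 listed regions and late-response activity genes had 25, and 0 of these had reads in both groups.

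Among neuron markers only Stmn2, a neuronal regulator of microtubules, had a region, 3.23% of 31 listed. It was lost, with 1.34, 0.53 and 0 after KCl and 4.42, 18.02 and 2.37 in control. Astrocyte markers had 45 listed regions, oligodendrocyte lineage markers 12, microglia markers 5, endothelial and pericyte markers 21 and housekeeping genes 4. None of these regions belonged here. Olfactory and vomeronasal receptor genes, which are silent in cortex, had 3 gained regions, at Olfr18, Vmn2r56 and Vmn2r66, 1.88% of 160. All 3 rested on 1 control read. All words were repeated at Olfr18 and 81.2% at Vmn2r56, against 5.56% at Vmn2r66.

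Lost regions were rarer, and their lower group held fewer reads than that of gained regions. In 105 of 140 the KCl group held 1 read, and in 121 it held 1 or 2. A single KCl library carried the reads in 123 regions, the second of them in 59, the first in 42 and the last in 22. The control group had reads in all libraries at the named ones. Taar6, a trace amine receptor gene, had the largest lost region outside the mitochondrial genome by control reads, 8 KCl reads against 100. Its values were 0, 4.26 and 0 after KCl and 6.94, 48.51 and 50.85 in control, without overlap, 2960 bases from the gene start. The region chr14:28341281-28341560, printed above, had 2.67, 5.33 and 0 against 2.21, 44.35 and 10.64, and there the first control value lay within the KCl range. An intronic region of Pcsk2, a prohormone convertase of neurons, had 0, 0 and 5.44 against 0.32, 2.77 and 43.76, which overlapped and rested on the last control library. A second region of Pcsk2 was gained, with 26 KCl reads against 6. Mobkl2b, a kinase activator homologue, had 0, 0.53 and 0 against 3.16, 15.24 and 18.92. That is 1 read against 37, a ratio of 37 with a counting interval (95%, exact) of 6.24 to 1500. All words of this Mobkl2b region were repeated in the genome, so its reads cannot be tied to this gene alone.

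Few genes held more than 1 region: 358 regions had a gene name in the authors' deposited table, over 332 genes. Sfi1, a centrosome protein, had 5, at chr11:3037481 to chr11:3065660, of which 3 were gained and 2 lost. The gained ones had 22, 30 and 20 KCl reads against 6, 6 and 12 in control, and the lost ones 1 and 1 against 43 and 32. Lingo2, a leucine-rich repeat membrane protein of neurons, had 2 gained and 1 lost region, and Pde4d had 3 gained ones. At the gained regions chr4:36138321-36138580 of Lingo2 and chr13:110203521-110203720 of Pde4d, 75% and 66.7% of words were repeated. Ust, Pcsk2 and Gab2, an adaptor of receptor tyrosine kinases, each had a region of either direction. At Gab2 the gained one had 18 KCl reads against 1 and the lost one 2 against 33. All words of the gained Gab2 region were repeated in the genome, so its reads cannot be tied to this gene alone. At Ust the lost one had 1 KCl read against 22. Only 34 of 1104 regions lay within 1000 bp of another.

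Input gave a measure that the rule did not use, though lane and treatment cannot be told apart there either. Dividing the authors' group mean by their ratio to input gives the mean of the input libraries, and an infinite ratio means input at 0. The KCl input was above 0 in 51.4% and the control input in 53.3% of the 1104 regions, against 26.8% and 27.2% of regions with one group at 0. Both inputs were above 0 in 347 gained and 59 lost regions, and 67.0% of these 406 were at repeated sequence, against 25.6% of the others. The median log2 ratio of KCl to control input was -0.157 in gained and -0.185 in lost regions, while the medians of the authors' deposited log2 fold change were 3.60 and -4.11 in the same regions. The input was higher after KCl in 149 of 347 gained and in 25 of 59 lost regions. It differed under 3-fold in 235 and in 40 of them. These input means carry the rounding of the deposited ratios and no spread over libraries.

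**Figure D5:**
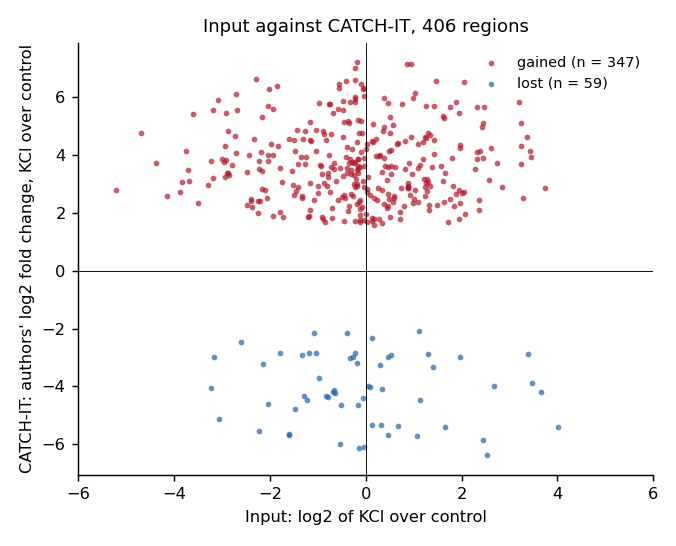
Log2 ratio of KCl input to control input (x axis) and the authors' log2 fold change of CATCH-IT, KCl over control (y axis), for the 406 regions with both inputs above 0. Gained (red) and lost (blue) regions both spread around 0 on the input axis, with medians of -0.157 and -0.185.

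By position, 492 regions were intergenic by the authors' classes, 314 in gene bodies, 233 in gene deserts, 44 at promoters and 21 in pericentromeres. Gene bodies held 28.4%, against 39.1% of regions with one group at 0, and gene deserts 21.1% against 16.2%. By GENCODE annotation the middle of the region lay in an intron in 374 cases, in coding exon sequence in 24 and in UTR sequence in 15. The promoter class of the authors reaches far: 3.99% of regions were in it, but 0.815% lay within 1 kb of a gene start. Als2cl, a guanine nucleotide exchange factor homologue, had one of the nearest, with 14.69, 3.73 and 40.77 after KCl against 0, 8.32 and 1.18 in control, which overlapped. The median GC content was 42.6% in gained and 41.8% in lost regions, against 43.1% with one group at 0.

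Binding motifs of activity-dependent factors occurred at shares near those of the rest of the table. Among regions of 380 bp, TGANTCA, the AP-1 motif read on both strands, occurred in 69 of 620, or 11.1%, against 11.4% of 23900 regions with one group at 0. TGACGTCA, the cyclic AMP response element, occurred in 1 of 620, or 0.161%, against 0.251%. A match is a match of letters and not a measured site. Length was itself uneven, with 620 of 1104 regions at exactly 380 bp, 594 of them gained and 26 lost. This was 56.2%, against 48.8% of regions of at most 380 bp with one group at 0. Just inside the length limit, at 380 bp, 95.8% were gained, and just outside, the 30 regions of 400 bp with reads in both groups were 96.7% gained. The lowest group mean inside the rule was 0.110, a single read in the first control library, at 138 regions.

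Few of the regions, as of all listed CATCH-IT regions, met regions that the study listed for the histone variant H3.3. Of the 667 regions listed for H3.3 at 5 hr, the same time as CATCH-IT, 0 overlapped, and 6 of all 53020 CATCH-IT regions did. None overlapped the lists for H3.3 at 30 min, for H3.1/2 or for H3.3 in NeuN-positive nuclei. At 2 hr 1 region overlapped, chr13:99791981-99792360, against 11 of all listed CATCH-IT regions. It was gained here with 18 reads against 6. In the H3.3 list the overlapping region was lost, and the authors' means were 3.55 after KCl and 14.51 in control. In NeuN-negative hippocampal nuclei 4 overlapped, against 17 of all listed CATCH-IT regions. All 4 lay in a single mitochondrial region of that list, chrM:10761-16300. There the authors' means were 1920.45 after enriched and 5774.57 after normal housing. Of these 4, mt-Nd4 and mt-Nd5 were lost here, and mt-Cytb and the region outside genes were gained.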

How the data were processed

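CATCH-IT was read from 3 KCl and 3 control libraries. The build was mm9, with alignment tool Bowtie 0.12.7 and bedtools 2.16.2 named, per the submitters' processing notes. The region caller, its test and its handling of reads that map to several places are not given in the sources used here. Per the file headers each region has packed values per group, the group mean (a coverage signal), its ratio to input, a log2 fold change, and a p-value, raw and adjusted, all made and deposited by the authors. No column with values of single samples was left out (0 columns).

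What 1 read was worth was found per library from the packed values, and whole reads were recovered (tested on simulated data). Words of 32 bases were counted over NCBIM37 on both strands. Counting intervals are exact, at 95%, and cover counting error only. They take reads as independent, which was not tested, and 33.1% of the values above 0 were whole multiples of 6. If reads are not independent, the intervals are too narrow. They are for ratios of summed reads that are not scaled for library depth. The members and lists were chosen with earlier results of these data known. Regions named are the 8 gained and 8 lost with the most reads in the lower group, the 8 of each with the smallest adjusted p, those at listed genes (4 where a list had more than 5), those overlapping another list and those of genes with most regions, given in part, and a few chosen after their values were seen (Rassf5, Als2cl, Cdh13 and the telomere and pericentromere regions). The gene lists held receptors, synapse, adhesion, channel, chromatin, transcription, activity, marker, housekeeping and olfactory genes. Sequence on chromosome 18 is not printed, and some regions and genes that the rule names are not reported here. No test was run, since the rule used the only contrast. Packages were pandas 2.3.3, numpy 2.4.6, scipy 1.17.1, numba 0.67.0 and matplotlib 3.10.9.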

Additional observations from a re-analysis of the deposited data

How the results depend on the processing

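No paired analysis was possible because the packed values carry no library names and no test was run. The share of gained regions, 87.3%, was 79.2% of the 269 regions of up to 300 bp. It was 93.7% of the 270 with at least 2 of 3 libraries above 0 in each group. With at least 3 reads in the lower group it was 96.8% of 597. By ratios to input it was 84.5% of the 406 with both inputs above 0, of which 347 were gained by the means. Leaving out each library in turn gave 76.6% to 92.2%, lowest without the first control library. The share with 1 read in the lower group, 36.2%, ranged from 34.5% to 57.9% in the same way, highest without the first control library. Regions without overlap, 65.1%, fell to 37.0% with at least 2 of 3 libraries above 0 in each group. Promoter regions, 3.99%, were 0.815% within 1 kb of a gene start.

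Other settings were chosen after seeing the data. At regions under 50% repeated words, 30.5% had 1 read in the lower group and 71.1% did not overlap. The repeated share, 40.9%, was 13.9% at 90% of words and 70.3% at any repeated word. The other alternatives moved no share beyond its 95% interval (exact), kept the sign of the GC difference, 0.878 percentage points, and left 0 overlaps with H3.3 at 5 hr. That interval counts regions as independent, which they are not, so it is only a yardstick for the size of a shift and no measure of stability. Causes were not tested. A single read in the lower group leaves a wide counting interval on a fold.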
